A study of Homo sapiens with 12 samples.

Results

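MiR-33a and miR-33b are paralogous human microRNAs whose hairpins lie in introns of SREBF2 and SREBF1. The 4 names chosen here are the 2 arms of each hairpin: miR-33a-5p, miR-33a-3p, miR-33b-5p and miR-33b-3p. All 4 were listed with reads in all 12 libraries, among 1611 miRNA names tabulated for HEK293T and 1854 tabulated for HCT116, and all 4 passed the filter on low counts in both lines. The set was selected on the level of miR-33b-5p, one of the largest rises on deletion of the DICER dsRBD in HEK293T. For these 4 arms, every value that sets the HEK293T deletion libraries against others is therefore given as a description, without a test. The HEK293T WT libraries were the other side of that comparison, so tests that use them are not independent of the choice.

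Small RNA was read by AQ-seq, a protocol built to lessen ligation bias, from 100 µg of total RNA per library. The cells were HEK293T, a human embryonic kidney line, and HCT116, a human colorectal carcinoma line, each rescued with 1 of 3 forms of DICER, the RNase that releases miRNA duplexes from their hairpins. The forms are called AA, ΔdsRBD (the double-stranded RNA-binding domain deleted) and WT, and each of the 6 groups held 2 libraries. What AA changes, how much of each form the cells made, what the cells carried before rescue and whether a line is 1 clone are not stated, so the form of DICER and its amount cannot be told apart. The labels number replicates 1 and 2 without saying whether they are separate cultures, so p-values measure only the spread between these libraries, which may be technical.

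A miRNA hairpin gives a duplex, of which one arm is usually kept as the guide in Argonaute and the other, the passenger, is mostly lost. For miR-33a and miR-33b the 5p arm is the main guide, and it is known for repressing the cholesterol exporter ABCA1 and genes of fatty acid oxidation. The host genes encode SREBP-2, which drives cholesterol synthesis genes, and SREBP-1, which drives fatty acid and triglyceride synthesis genes, so each miRNA is made from the transcript of a lipid regulator.

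The mature sequences, from the RefSeq annotation of GRCh38.p14, are shown because both paralogs are counted by name and their 5p arms are nearly alike. Bases are written 5′ to 3′, and capitals mark the seed, bases 2 to 8, which pairs with targets.
hsa-miR-33a-5p: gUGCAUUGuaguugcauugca
hsa-miR-33b-5p: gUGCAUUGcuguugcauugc
hsa-miR-33a-3p: cAAUGUUUccacagugcaucac
hsa-miR-33b-3p: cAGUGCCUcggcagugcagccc

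The 5p arms shared their seed and were identical at 18 of 20 aligned bases. They differed by U9C and A10U, written as the miR-33a base, the position counted from 1 at the 5′ end, and the miR-33b base, and miR-33a-5p was 1 base longer. The 3p arms were identical at 15 of 22 bases, and 3 of their 7 differences (A3G, U6C and U7C) lay in the seed. No other listed name with a RefSeq sequence shared a seed with any of the 4 arms, where 1735 of 1971 listed names (88.0%) could be matched. The sources do not state how reads that fit several names were counted, so short or mismatched reads of the 5p arms could be shared between the paralogs.

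The hairpins are shown to place the arms, with both mature arms in capitals. MIR33A lies at chr22:41900944-41901012 on the plus strand and MIR33B at chr17:17813836-17813931 on the minus strand of GRCh38.
MIR33A: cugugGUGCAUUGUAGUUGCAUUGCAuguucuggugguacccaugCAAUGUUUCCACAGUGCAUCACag
MIR33B: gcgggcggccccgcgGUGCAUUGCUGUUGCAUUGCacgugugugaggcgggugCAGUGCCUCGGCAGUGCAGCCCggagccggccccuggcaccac

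In GENCODE v29 each hairpin fell in intron 16 of the 19-exon principal transcript of its host, on the host's strand and outside the exons of every spanning transcript (6 for SREBF2 and 7 for SREBF1). The arms were separated by 19 bases in miR-33a and 18 in miR-33b. In the minimum free energy fold computed by ViennaRNA, 18 of 21 bases of miR-33a-5p and 18 of 20 bases of miR-33b-5p were paired. The unpaired bases were 10, 12 and 13 of miR-33a-5p and 12 and 13 of miR-33b-5p. GC made up 46.8% of the stretch from the start of the 5p arm to the end of the 3p arm in miR-33a and 63.3% in miR-33b.

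In every library miR-33a-5p had the most reads of the 4 arms. MiR-33b-3p had the fewest in all but 1 library, replicate 1 of the HCT116 deletion, where miR-33a-3p had fewer. Values below are CPM, reads scaled to a common library size by edgeR's TMM factors, which set the typical miRNA equal between libraries and were computed for each line on its own. In HEK293T miR-33a-5p stood at 1047 and 1026 CPM with AA, at 4942 and 5162 CPM with the dsRBD deletion and at 1777 and 1067 CPM with WT. The deletion libraries were above all others and alike, and the WT replicates differed 1.67-fold. In HCT116 the same arm stood at 2597 and 2176 CPM with AA, at 1257 and 2678 CPM with the deletion and at 2189 and 2050 CPM with WT. Both AA libraries and both WT libraries fell inside the span of the 2 deletion libraries, which differed 2.13-fold.

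MiR-33b-5p in HEK293T stood at 277 and 301 CPM with AA, at 2471 and 2153 CPM with the deletion and at 269 and 152 CPM with WT. The AA libraries lay just above the higher WT library, and the deletion libraries lay far above both. In HCT116 miR-33b-5p stood at 1606 and 1185 CPM with AA, at 935 and 1633 CPM with the deletion and at 1112 and 975 CPM with WT. The deletion libraries again spanned all the others, with a 1.75-fold difference between them. From the highest group mean to the lowest, miR-33b-5p ran from HEK293T deletion (2312 CPM) through HCT116 AA (1395), deletion (1284) and WT (1044) to HEK293T AA (289) and WT (211). Each HCT116 deletion library lay outside the span of the AA and WT libraries, so the deletion overlapped both of those groups. No HCT116 library (935 CPM or more) overlapped a HEK293T AA or WT library (301 CPM or less). The lines were scaled separately, so this order of groups across lines is a description without a common scale. The share of all names that did not overlap between the lines was not computed. The means of HEK293T AA and WT differed by less than the 2 WT libraries did.

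The passenger arms were lower. MiR-33a-3p stood in HEK293T at 154 and 147 CPM with AA, at 352 and 420 CPM with the deletion and at 209 and 210 CPM with WT. In HCT116 it stood at 191 and 164 CPM with AA, at 87.7 and 121 CPM with the deletion and at 197 and 226 CPM with WT. Relative to WT the deletion libraries were thus all higher in HEK293T and all lower in HCT116 on this scale. MiR-33b-3p, the lowest of the 4 in HEK293T, stood in HEK293T at 26.7 and 32.3 CPM with AA, at 66.2 and 73.5 CPM with the deletion and at 28.0 and 27.2 CPM with WT. In HCT116 it stood at 74.7 and 72.8 CPM with AA, at 110 and 74.2 CPM with the deletion and at 96.4 and 106 CPM with WT. It rested on 45 to 96 reads per library in HEK293T and 107 to 383 in HCT116. In replicate 1 of the HCT116 deletion the lowest count was that of miR-33a-3p, with 85 reads.

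**Figure D1:**
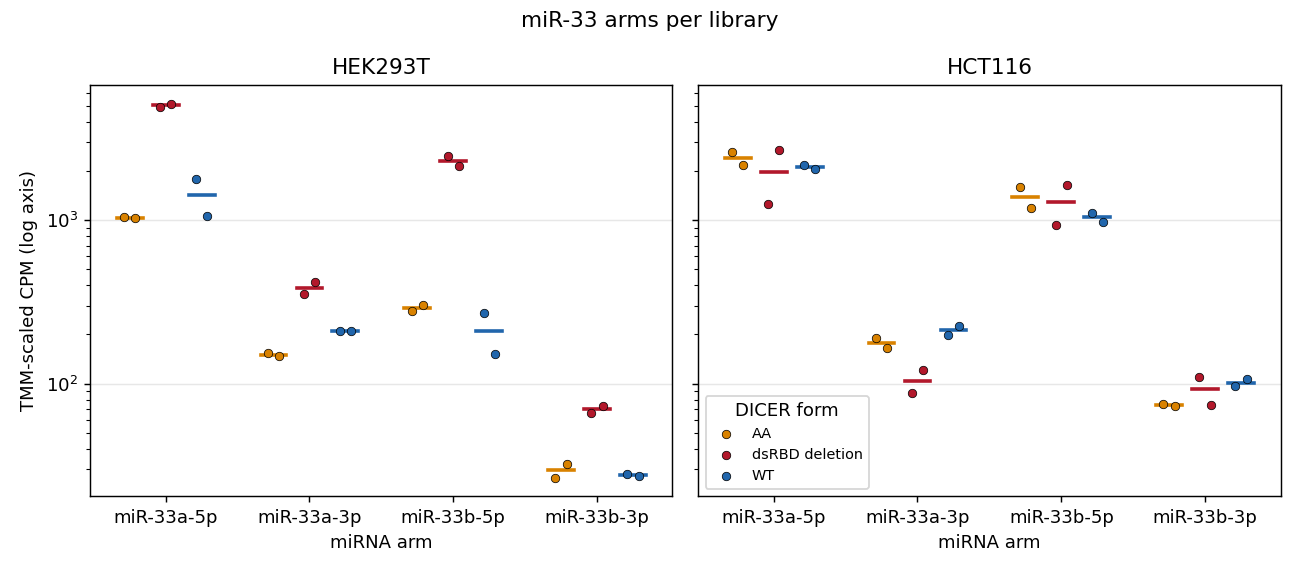
TMM-scaled CPM (log axis) of the 4 miR-33 arms in HEK293T and HCT116 with AA, dsRBD deletion and WT DICER; points are libraries and lines are means of 2. In HEK293T the deletion libraries stand above the WT libraries for all 4 arms, whereas in HCT116 only miR-33a-3p separates them, with the deletion below WT.

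With the dsRBD deletion in HEK293T, set against WT, miR-33b-5p averaged 2312 ± 225 CPM against 211 ± 82.4 CPM (SD, n = 2 each), an 11.0-fold difference. Its log2 fold change was 3.46 ± 0.26 (SE), and 10 of the 626 names tested stood higher. MiR-33a-5p averaged 5052 ± 155 CPM with the deletion and 1422 ± 502 CPM with WT, 3.55-fold higher (log2 1.83 ± 0.23), and 101 names had a larger value. For the passenger arms the log2 fold changes were 1.34 ± 0.24 for miR-33b-3p and 0.88 ± 0.18 for miR-33a-3p. None of the 4 arms overlapped between the deletion and WT, which held for 89% of the names tested. Of those names 75.6% passed the adjusted p threshold of 0.05 (35.9% higher and 39.6% lower), so a difference in this comparison was the common outcome. The reads of both 5p arms together were 4.51-fold higher, at 7364 ± 69.3 CPM with the deletion against 1632 ± 585 CPM with WT.

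Against the added spike-in RNA the 4 arms in HEK293T no longer all lay above WT with the deletion. All miRNA reads per spike-in read were at 34.5% of WT, and all 4 arms stood lower than by TMM by nearly the same amount. MiR-33b-5p had 76.9 and 62.5 reads per 1000 spike-in reads with the deletion, against 22.5 and 11.9 with WT, 4.06-fold higher on average. MiR-33a-5p had 154 and 150 with the deletion, against 148 and 83.1 with WT, so that its deletion libraries lay barely above the higher WT library. MiR-33a-3p had 11.0 and 12.2 with the deletion, against 17.4 and 16.4 with WT, 68.4% of WT. MiR-33b-3p had 2.06 and 2.13 against 2.34 and 2.12, and these overlapped. Relative to the typical miRNA all 4 arms were higher, and relative to the spike-ins miR-33b-5p was higher and miR-33a-3p lower in both deletion libraries than in both WT libraries. In bulk RNA, fewer cells yielding a miRNA and less of it per cell cannot be told apart.

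Single spike-ins gave different answers for 3 of the arms. With each of the 30 taken alone as the scale, the log2 difference of miR-33b-5p between deletion and WT in HEK293T ran from 0.45 to 3.26, above 0 with all 30. For miR-33a-5p it ran from -1.18 to 1.63 and was above 0 with 20. For miR-33b-3p it ran from -1.72 to 1.09, above 0 with 14, and for miR-33a-3p from -2.18 to 0.63, above 0 with 8. How much spike-in was added, and when, is not stated.

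**Figure D2:**
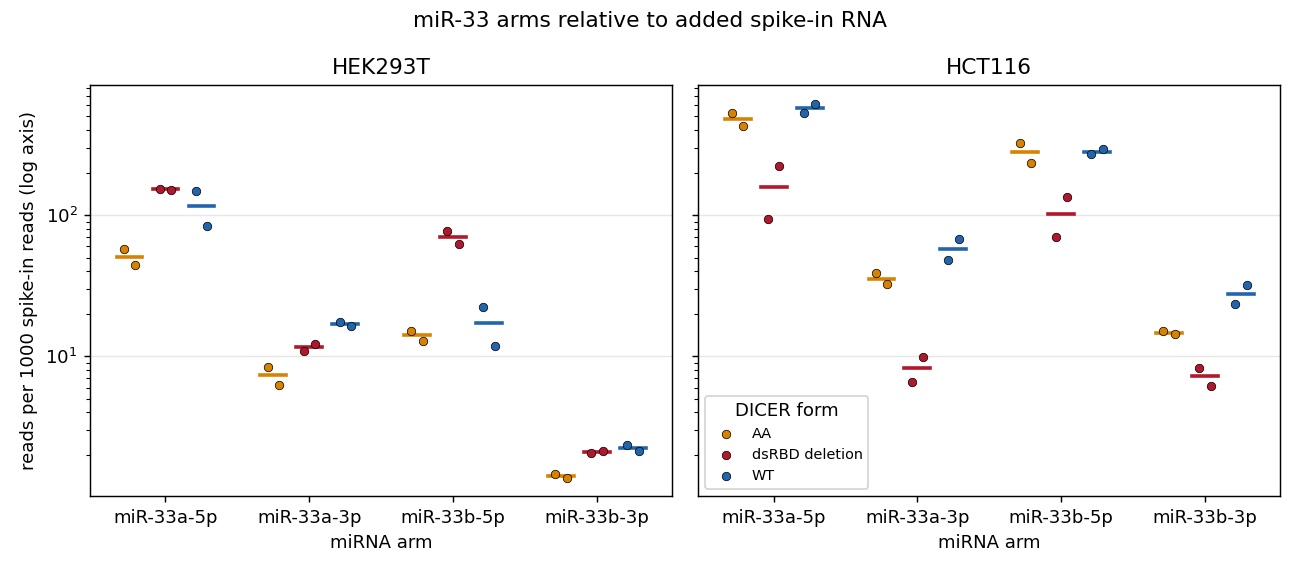
Reads of each miR-33 arm per 1000 spike-in reads (log axis) in the 12 libraries; points are libraries and lines are means of 2. MiR-33b-5p in HEK293T is higher with the dsRBD deletion than with WT, while in HCT116 all 4 arms are lower with the deletion.

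In HCT116, which played no part in how miR-33b-5p was picked out, the deletion gave a different result. Of the 4 arms 1 passed edgeR's quasi-likelihood test after Benjamini-Hochberg adjustment, beside 62.1% of the 795 names tested in that line (28.1% higher and 34.1% lower). It was miR-33a-3p, the passenger arm of miR-33a, which fell 2.00-fold, to 104 ± 23.2 CPM with the deletion against 212 ± 20.4 CPM with WT (SD, n = 2 each). Its log2 fold change was -1.0 ± 0.19 (SE; edgeR, adjusted p = 7.9e-04), and DESeq2 called the same arm. With library totals in place of TMM its value was -0.47 and the adjusted p from edgeR was 0.0724, so the call depended on the scale. With spike-in size factors all 4 arms passed edgeR's test below WT, at log2 values of -1.86 for miR-33a-5p, -2.80 for miR-33a-3p, -1.46 for miR-33b-5p and -1.96 for miR-33b-3p. On that scale a fall was the common outcome, with 605 of the 795 names called, 598 of them lower, and a median of -1.78.

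The other 3 arms did not pass with TMM in HCT116. MiR-33b-5p had a log2 fold change of 0.30 with the deletion (95% interval -0.22 to 0.82, edgeR adjusted p = 0.281), and miR-33a-5p one of -0.10 (-0.69 to 0.49, edgeR adjusted p = 0.738). MiR-33b-3p had -0.16 (-0.60 to 0.27, edgeR adjusted p = 0.482). The value of miR-33b-5p was called higher with library totals (0.84, edgeR adjusted p = 0.0308) and with upper-quartile factors (0.58, edgeR adjusted p = 0.0433), so both its direction and its call depended on the scale. These values rested on deletion libraries that disagreed: without replicate 1 of the deletion miR-33a-5p gave 0.20 and miR-33b-5p 0.51 (edgeR adjusted p = 0.0331), and without replicate 2 they gave -0.85 (edgeR adjusted p = 6.2e-04) and -0.25. MiR-33b-3p gave -0.59 without replicate 1 (edgeR adjusted p = 0.0188) and 0.03 without replicate 2. Replicate 2 held more of both guide arms than replicate 1, and replicate 1 more miR-33b-3p, at 107 reads of 824987 miRNA reads against 128 reads in the deeper replicate 2.

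Per spike-in read all 4 arms were lower with the deletion in HCT116. MiR-33a-5p had 94.0 and 221 reads per 1000 spike-in reads with the deletion, against 529 and 616 with WT, 27.5% of WT. MiR-33b-5p had 69.9 and 135, against 269 and 293, 36.4% of WT. MiR-33a-3p was at 14.3% of WT and miR-33b-3p at 26%, beside 20.0% for all miRNA reads. No arm overlapped between its groups (two-sided exact permutation p = 0.333, the floor of 2 against 2). All miRNA reads per spike-in read did not overlap either. The share of all names without overlap on this scale was not computed, so the arms cannot be set apart from other miRNAs by it. With each of the 30 spike-ins as the scale all 4 arms had log2 differences below 0. The choice of scale moved the typical miRNA itself, whose median log2 change with the deletion was -0.01 by TMM, 0.52 by library totals and -1.78 by spike-in size factors in HCT116, and -0.07, 0.04 and -1.53 in HEK293T. A change of scale moves all names nearly alike, so values relative to that median hardly depend on the scale by construction. They describe where the arms stood among the names and are no check of the results. Over 6 scalings miR-33b-5p was 3.53 to 3.55 above the median in HEK293T and 0.31 to 0.32 above it in HCT116, and miR-33a-5p was 1.89 to 1.92 above it in HEK293T and 0.10 to 0.08 below it in HCT116.

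**Figure D3:**
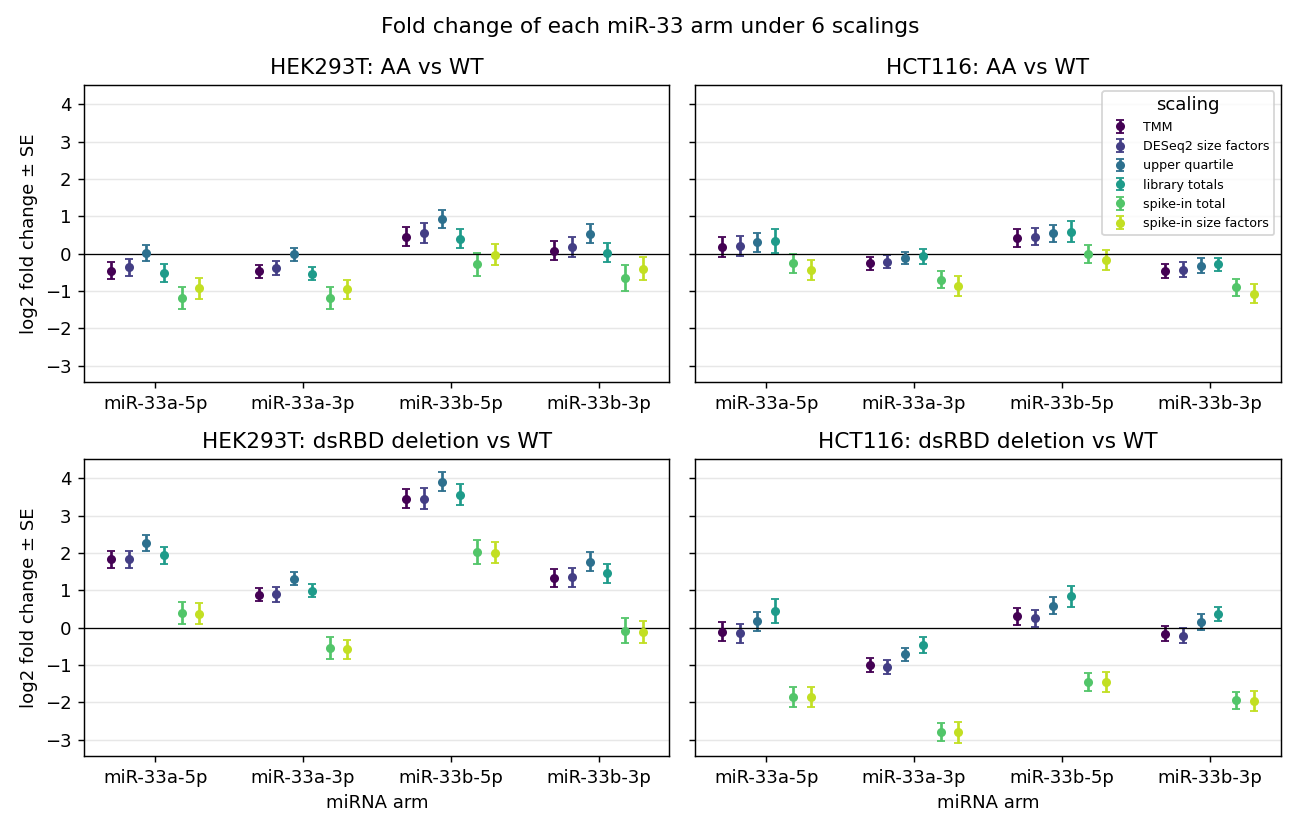
Log2 fold change against WT of the 4 miR-33 arms under each way of scaling the libraries, for the dsRBD deletion and AA in both lines. Under spike-in scaling every value moves down. MiR-33b-5p in HEK293T with the deletion, the comparison in which it was picked out, is above 0 under every scaling drawn.

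The difference between the lines in the deletion's effect, HEK293T minus HCT116 in a fit of all 12 libraries, was 3.51 ± 0.33 for miR-33b-5p (log2, SE). It was 2.28 ± 0.34 for miR-33a-5p, 2.20 ± 0.28 for miR-33a-3p and 1.80 ± 0.34 for miR-33b-3p, beside a median of 0.34 over the 844 names tested. Of those names 32 had a larger difference than miR-33b-5p. The HEK293T deletion libraries enter these values, so they carry no test.

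With TMM scaling the AA form left the 4 arms without a call in either line. In HEK293T, which shares its WT libraries with the comparison in which miR-33b-5p was picked out, 0 of 4 passed edgeR, beside 21.4% of 626 names, with 1 arm at an unadjusted p under 0.05 (miR-33a-3p) and 0 by DESeq2 in either respect. MiR-33a-3p had a log2 fold change of -0.48 (95% interval -0.87 to -0.08, edgeR adjusted p = 0.0876) and miR-33a-5p one of -0.46 (-0.95 to 0.04, edgeR adjusted p = 0.180). MiR-33b-5p had 0.46 (-0.08 to 1.00, edgeR adjusted p = 0.214) and miR-33b-3p 0.08 (-0.48 to 0.63, edgeR adjusted p = 0.888). The WT library that is left out decided both guide arms: without WT replicate 2 miR-33a-5p gave -0.88 (edgeR adjusted p = 0.0079), and without WT replicate 1 miR-33b-5p gave 0.93 (edgeR adjusted p = 0.0137). The scale decided calls too. With spike-in size factors miR-33a-5p (-0.93, edgeR adjusted p = 0.0170) and miR-33a-3p (-0.95, edgeR adjusted p = 0.0097) passed below WT, and miR-33b-5p was at -0.027. On that scale 198 of the 626 names were called, 190 of them lower, with a median of -0.58. With upper-quartile factors miR-33b-5p passed above WT (0.93, edgeR adjusted p = 0.0136), where 170 of the 626 names were called, 129 of them higher.

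In HCT116 with AA 0 of 4 arms passed edgeR, beside 7.42% of 795 names, with 1 at an unadjusted p under 0.05 (miR-33b-3p) and 0 by DESeq2 in either respect. The log2 fold changes were -0.46 ± 0.19 for miR-33b-3p (SE; edgeR adjusted p = 0.189) and 0.42 ± 0.23 for miR-33b-5p (edgeR adjusted p = 0.370). They were -0.25 ± 0.17 for miR-33a-3p and 0.17 ± 0.27 for miR-33a-5p. With spike-in size factors both passenger arms passed below WT, miR-33a-3p at -0.87 (edgeR adjusted p = 0.0051) and miR-33b-3p at -1.07 (edgeR adjusted p = 4.3e-04), and the guide arms turned below 0, at -0.43 for miR-33a-5p and -0.17 for miR-33b-5p. On that scale 272 of the 795 names were called, 270 of them lower, with a median of -0.63. No arm was called different between the lines in its change with AA by edgeR's test of that difference (adjusted p of 0.400 to 0.908, 0 at an unadjusted p under 0.05, beside 3.91% of 844 names called), and DESeq2 also called 0, with 1 at an unadjusted p under 0.05. This test uses the HEK293T WT libraries, which entered the choice of the set, so it is not independent of that choice. The intervals of the difference between the lines were wide, from -0.49 to 0.87 for miR-33b-5p. With AA set against the deletion, HCT116 had miR-33a-3p higher, at 178 ± 19.0 CPM against 104 ± 23.2 CPM (SD, n = 2 each), or 0.75 ± 0.19 on the log2 scale (SE; edgeR adjusted p = 0.0060), beside 56.5% of names called (29.6% higher). That call was lost with library totals (0.39, edgeR adjusted p = 0.132). The other 3 arms did not pass, at 0.27 for miR-33a-5p, 0.12 for miR-33b-5p and -0.30 for miR-33b-3p (edgeR adjusted p of 0.231 to 0.701). With spike-in size factors all 3 passed above 0, at 1.43 for miR-33a-5p (edgeR adjusted p = 5.3e-07), 1.28 for miR-33b-5p (edgeR adjusted p = 6.3e-06) and 0.89 for miR-33b-3p (edgeR adjusted p = 0.0021). On that scale 490 of the 795 names were called, 476 of them higher, with a median of 1.12. MiR-33b-3p passed below 0 with library totals (-0.65, edgeR adjusted p = 0.0181). Without deletion replicate 2 both guide arms passed, miR-33a-5p at 1.02 (edgeR adjusted p = 2.4e-04) and miR-33b-5p at 0.67 (edgeR adjusted p = 0.0149), whereas without deletion replicate 1 they were at -0.03 and -0.09. MiR-33a-5p also passed with no filter on low counts (0.49, edgeR adjusted p = 0.0039). In HEK293T the same comparison gave log2 values of -3.0 for miR-33b-5p and -2.28 for miR-33a-5p, as a description.

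Per spike-in read, AA in HEK293T was at 43.8% of WT for miR-33a-5p, 43.6% for miR-33a-3p, 81.8% for miR-33b-5p and 63.8% for miR-33b-3p, beside 63.1% for all miRNA reads. In HCT116 the values were 83.3%, 61.4%, 99.3% and 53.3% in the same order of arms, beside 64.8%. Of the 4 arms, miR-33b-5p stood closest to its WT level in both lines, and its AA and WT libraries overlapped on this scale.

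The share of miR-33b-5p among the reads of both guide arms needs no scaling between libraries, since both are counted in the same library. In HEK293T it was 20.9% and 22.7% with AA, 33.3% and 29.4% with the deletion and 13.1% and 12.5% with WT. In HCT116 it was 38.2% and 35.2% with AA, 42.7% and 37.9% with the deletion and 33.7% and 32.2% with WT. In HCT116 every library with AA or the deletion had a larger miR-33b share than every WT library. In HEK293T both AA libraries did, against WT libraries that entered the choice of the set. The HEK293T deletion libraries, whose miR-33b-5p level entered that choice, were above WT too, as a description. The Wilson 95% interval of a library, which covers counting error only, ran from 40.6% to 44.8% at its widest, in the shallowest deletion library of HCT116.

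In HCT116 the share averaged 40.3 ± 3.38% with the deletion and 33 ± 1.02% with WT (SD, n = 2 each), a difference of 7.30 percentage points. With AA it averaged 36.7 ± 2.09%, a difference from WT of 3.76 points. In HEK293T it averaged 21.8 ± 1.25% with AA and 12.8 ± 0.461% with WT, a difference of 8.99 points. Each of these 3 comparisons gave p = 0.333 in a two-sided exact permutation test, the lowest value possible for 2 against 2, so the design could not reach 0.05. The HEK293T deletion averaged 31.4 ± 2.76%, 18.6 points above WT, as a description. AA and the deletion share their WT libraries in each line, and in HCT116 they overlapped each other (exact permutation p = 0.667).

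**Figure D4:**
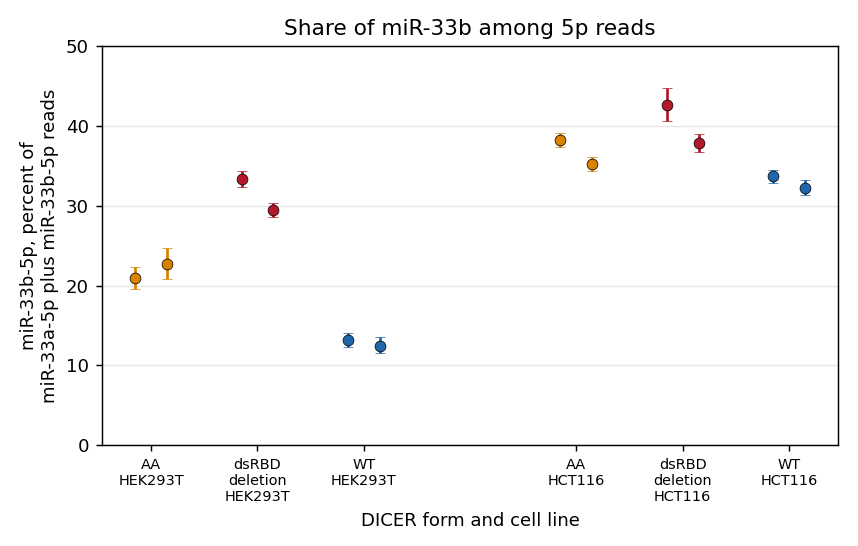
Percent of miR-33 5p reads named miR-33b-5p in each library, with Wilson 95% intervals (counting error) as bars, for AA, dsRBD deletion and WT in both lines. WT libraries are lowest in each line, at 13.1% and 12.5% in HEK293T and 33.7% and 32.2% in HCT116.

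The passenger arms divided otherwise between the paralogs. MiR-33b-3p made up 29.4 ± 1.84% of the 3p reads with AA, 46.9 ± 12.5% with the deletion and 32.4 ± 0.597% with WT in HCT116 (SD, n = 2 each). In HEK293T it made up 16.4 ± 2.30% with AA, 15.4 ± 0.664% with the deletion and 11.6 ± 0.274% with WT. With AA in HCT116 the miR-33b share thus lay above WT among guide arms and below WT among passenger arms.

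Arm use within a hairpin is also free of scaling between libraries. The 5p arm made up most reads of both hairpins in all libraries, from 83.5% to 95.7% for miR-33a and from 84.9% to 97.4% for miR-33b. In HCT116 the 5p share of miR-33a was 93.1% and 93.0% with AA, 93.5% and 95.7% with the deletion and 91.7% and 90.1% with WT. Its 5p to 3p ratio rose with the deletion by 0.87 ± 0.22 on the log2 scale (SE; edgeR's test of arm by group, adjusted p = 0.0013). That equals the median of 0.87 over the 229 hairpins tested, of which 62.9% were called and 46.7% towards the 5p arm.

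For miR-33b in HCT116 the 5p share was 95.6% and 94.2% with AA, 89.4% and 95.7% with the deletion and 92.0% and 90.2% with WT. The 2 deletion libraries lay on either side of all the WT libraries. The deletion gave 0.44 ± 0.30 (SE; edgeR adjusted p = 0.203), which was 1.10 without deletion replicate 1 and -0.28 without deletion replicate 2. With AA the 5p to 3p ratio of miR-33b rose by 0.86 ± 0.28 (SE; edgeR adjusted p = 0.0461), beside 13.5% of the hairpins called, 8.73% towards the 5p arm, and a median of 0.08. That call was lost without AA replicate 1 (0.66, edgeR adjusted p = 0.291), WT replicate 1 (1.03, edgeR adjusted p = 0.265) or WT replicate 2 (0.70, edgeR adjusted p = 0.414). For miR-33a with AA the value was 0.42 ± 0.20 (SE; edgeR adjusted p = 0.208).

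In HEK293T with AA neither hairpin passed, with values of 0.07 for miR-33a (95% interval -0.52 to 0.65, edgeR adjusted p = 0.922) and 0.43 for miR-33b (-0.25 to 1.12, edgeR adjusted p = 0.466), beside 10.6% of 180 hairpins called. Those tests also rest on the HEK293T WT libraries that entered the choice of the set. The 5p share of miR-33a in HEK293T was 87.2% and 87.5% with AA, 93.3% and 92.5% with the deletion and 89.5% and 83.5% with WT. That of miR-33b was 91.2% and 90.3% with AA, 97.4% and 96.7% with the deletion and 90.6% and 84.9% with WT. The log2 ratio of 5p to 3p was higher with the deletion than with WT by 2.17 for miR-33b and 1.00 for miR-33a, beside a median of 0.37, as a description.

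**Figure D5:**
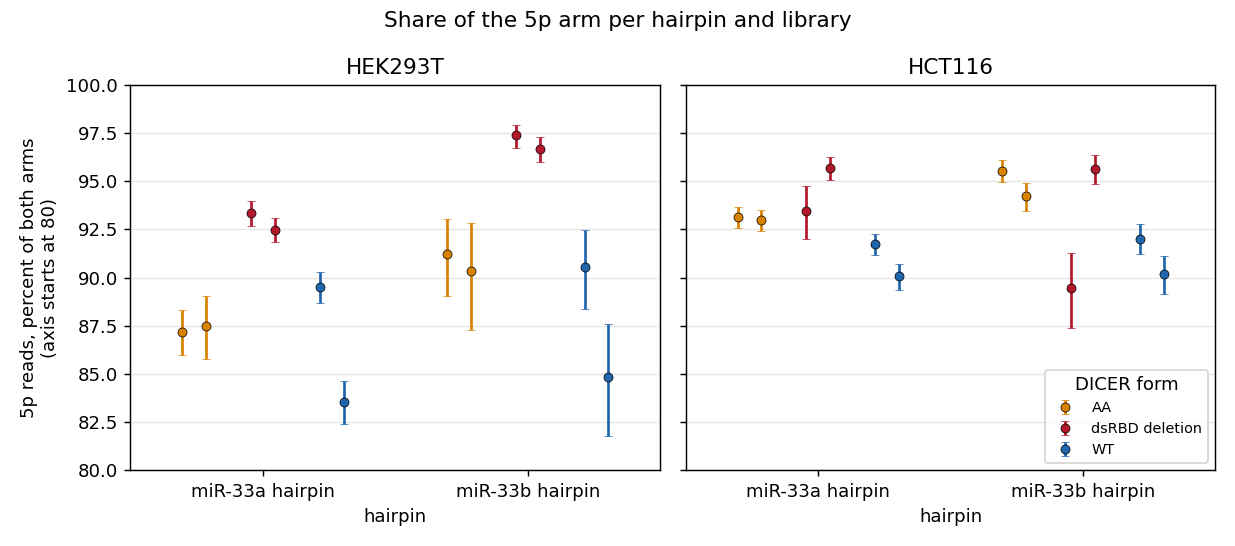
Percent of a hairpin's reads on the 5p arm in each library, for miR-33a and miR-33b in both lines, with exact 95% intervals (counting error) as bars. The 2 HCT116 deletion libraries of miR-33b, at 89.4% and 95.7%, lie on either side of the WT libraries.

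Between replicates the 2 guide arms moved together where they moved most. In HEK293T with WT, replicate 1 exceeded replicate 2 by 0.74 for miR-33a-5p and 0.82 for miR-33b-5p on the log2 CPM scale, differences larger than those of 90.6% and 92.8% of names. The passenger arms of the same libraries differed by 0.01 and 0.04 in size. In HCT116 with the deletion, replicate 2 exceeded replicate 1 by 1.09 for miR-33a-5p and 0.80 for miR-33b-5p. In the 4 other groups the guide arms differed between replicates by 0.03 to 0.44.

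By likeness over the 12 libraries, centred within each line, miR-33a-5p came closest to miR-186-3p (Pearson r = 0.985), miR-19a-3p (0.946) and miR-23a-3p (0.936) among 406 names with at least 10 CPM in both lines. Its paralog miR-33b-5p stood at rank 4 with 0.933, and miR-33a-3p of the same hairpin at rank 45. Seen from miR-33b-5p, miR-33a-5p stood at rank 15 and miR-33b-3p at rank 69. MiR-33b-5p came closest to miR-548a-3p (0.974), miR-570-3p (0.973) and miR-193a-3p (0.972). All of these share the 12 libraries and are led by the 2 HEK293T deletion libraries, where miR-193a-3p had a log2 fold change against WT of 3.63 and miR-186-3p one of 2.16.

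Other miRNAs known to act on lipid and cholesterol genes were mostly lower in the deletion libraries by TMM scaling. Of 17 tested names of that list in HEK293T 3 rose and 11 fell with the deletion against WT by edgeR's adjusted p, with a median log2 fold change of -1.85, beside 35.9% higher and 39.6% lower and a median of -0.07 over all names. MiR-19b-3p rose by 2.23 (edgeR adjusted p = 5.8e-07), and miR-128-3p, known for repressing ABCA1 and the LDL receptor, fell by 4.74 on the log2 scale (edgeR adjusted p = 2.1e-08). In HCT116 5 rose and 11 fell of 20 tested, with a median of -0.42, beside 28.1% higher and 34.1% lower and a median of -0.01 over all names. In that line the split depended on the scale: with library totals 9 rose and 8 fell (median 0.10), and with spike-in size factors 0 rose and 17 fell (median -2.23). All names moved with the scale too. Of 795 names 317 rose and 198 fell with library totals, and 7 rose and 598 fell with spike-in size factors. By TMM in HCT116 miR-27b-3p, a repressor of several lipid genes, fell by 5.51 on the log2 scale (edgeR adjusted p = 1.0e-09). Its levels were 162 and 168 CPM with the deletion, against 7805 and 7247 CPM with WT. MiR-30c-5p, which represses the triglyceride transfer protein MTP, fell by 1.73 (edgeR adjusted p = 5.3e-07). Of the names that rose there, miR-144-3p had the largest rise, by 1.12 (edgeR adjusted p = 0.0200). It stood at only 11.4 and 13.3 CPM with the deletion, against 5.79 and 5.72 CPM with WT. The abundant miR-19b-3p rose by 0.46 (edgeR adjusted p = 0.0072).

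With AA fewer names of the list passed. In HEK293T 3 of 17 rose and 5 fell, with a median of -0.01, beside -0.11 over all names, of which 6.23% rose and 15.2% fell. MiR-182-5p, which SREBP-2 is known to induce, rose by 1.28 (edgeR adjusted p = 7.6e-04) and miR-27b-3p fell by 1.92 on the log2 scale (edgeR adjusted p = 4.1e-05). In HCT116 0 of 20 rose and 2 fell by edgeR, where 1.26% of all names rose and 6.16% fell, and miR-27b-3p fell by 0.55 on the log2 scale (edgeR adjusted p = 0.0144). The list of other miRNAs hosted in introns takes both arms of each and shares names with the lipid list, such as miR-26a-5p and miR-30c-5p. The 2 lists are therefore not independent. Intronic miRNAs gave 15 higher and 39 lower of 65 tested with the deletion in HEK293T, with a median of -1.85. Of all names 35.9% were higher and 39.6% lower there, with a median of -0.07. In HCT116 the intronic miRNAs gave 21 higher (31.8%) and 33 lower of 66, with a median of -0.41. Of all names 28.1% were higher and 34.1% lower in that line, with a median of -0.01. In HCT116 that split too turned with library totals, to 26 higher and 24 lower, beside 317 higher and 198 lower of all 795 names. With AA the intronic miRNAs gave 3 higher and 10 lower of 65 in HEK293T and 2 higher and 3 lower of 66 in HCT116. In HEK293T with AA the directions turned with upper-quartile factors, to 6 higher and 3 lower in the lipid list. Among the intronic miRNAs they turned to 13 higher and 2 lower. Over all 626 names that scale gave 129 higher and 41 lower. In HCT116 with AA and spike-in size factors, the lipid list had 0 higher and 7 lower. The intronic miRNAs had 0 higher and 27 lower, beside 2 higher and 270 lower of all 795 names. Library totals gave 1 higher and 0 lower in the lipid list and 4 higher and 1 lower among the intronic miRNAs. Of all names 22 were then higher and 23 lower. Among the intronic miRNAs, in HEK293T with the deletion by TMM, miR-362-5p rose by 3.13 and miR-93-5p fell by 6.42 on the log2 scale (edgeR adjusted p = 5.6e-07 and 8.1e-09).

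The libraries held 1059778 to 3552613 miRNA reads in HEK293T and 824987 to 4498886 in HCT116, and a count of 0 allows a level of up to 3 reads, which came to 0.755 to 3.10 CPM. Of 8 epithelial markers 7 averaged over 10 CPM in HCT116 and 5 in HEK293T. In HCT116 they summed to 6073 to 6094 CPM with AA, 2151 to 2365 CPM with the deletion and 5705 to 6196 CPM with WT. In HEK293T they summed to 3086 to 3109 CPM with AA, 3140 to 3165 CPM with the deletion and 1971 to 2247 CPM with WT. There miR-192-5p was at 643 to 1382 CPM, miR-194-5p at 743 to 1922 CPM and miR-215-5p at 251 to 1065 CPM, whereas miR-200a-3p, miR-200b-3p and miR-429 were at 0 to 11.7 CPM. In HCT116 miR-192-5p was at 139 to 171 CPM, miR-194-5p at 235 to 300 CPM and miR-215-5p at 1.20 to 5.22 CPM. These lay below their HEK293T values, though the lines were scaled separately. HCT116 had miR-200a-3p at 280 to 2352 CPM, miR-200b-3p at 1057 to 2394 CPM and miR-429 at 358 to 960 CPM. Of 9 markers of liver, muscle, neurons and blood 8 were listed. In HEK293T they summed to 124 to 136 CPM with AA, 352 to 376 CPM with the deletion and 86.8 to 117 CPM with WT, mostly miR-124-3p, a neuronal miRNA, with miR-142-5p, miR-223-3p and miR-150-5p at 0 in at least 1 library. In HCT116 they summed to 511 to 529 CPM with AA, 145 to 187 CPM with the deletion and 519 to 521 CPM with WT, mostly miR-142-3p, with miR-1-3p and miR-124-3p at 0 in at least 1 library. These sums differed between the deletion and WT in both lines, that of the epithelial markers in HEK293T also between AA and WT, and their part in the miR-33 values was not tested.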

How the data were processed

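The deposited values were raw counts, a table of reads per miRNA name and per spike-in (30 RNAs) for each of 12 libraries, and the authors made them from AQ-seq reads. The submitters' processing notes name cutadapt, BWA and bedtools and the builds hg38 and mm10. Versions, order, roles of the builds and the miRNA annotation are not stated. Libraries were grouped by title (2 per group, 6 groups).

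Spike-ins, 1.20% to 3.54% of reads in HEK293T and 0.272% to 1.55% in HCT116, entered neither library sizes nor tests. Names that passed filterByExpr by group (minimum count 10) were TMM-scaled within a line and tested over its 6 libraries with edgeR's quasi-likelihood F test, two-sided, with Benjamini-Hochberg adjustment over all names at 0.05. Line differences used all 12 libraries. Arm use was tested as an arm by group interaction, blocked by library, for hairpins whose arms each had 10 reads or more in 2 libraries. An SE is the log2 fold change over the square root of F, without its sign. Arm shares have exact intervals and paralog shares Wilson intervals, both at 95%. The scripts were tested on simulated data. Tools were R 4.3.3, edgeR 4.0.16, limma 3.58.1, DESeq2 1.42.0, Python 3.11.15, ViennaRNA 2.7.2 and matplotlib 3.10.9.

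Alternatives were DESeq2 and its size factors, library totals, upper-quartile factors, spike-in scaling, no filter, at least 5 reads per arm, both arms summed, a replicate block and each library left out. Single spike-ins (pseudocount 0.5) were added after the data were seen. Same-numbered replicates did not deviate together (correlations of -0.10 to 0.15), and were not paired. The named miRNAs are the 4 arms, per list the 4 most abundant names and the largest called rise and fall, and the 3 names most like each guide arm, of which the text gives those that carry a comparison. Members and lists were chosen with earlier results of these data known. The raw reads were not used here.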

Additional observations from a re-analysis of the deposited data

Results flagged for a closer look

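MiR-33a-3p with the deletion lay on opposite sides of WT in the 2 lines: every HEK293T deletion library (352 and 420 CPM) lay above every WT library (209 and 210 CPM), and every HCT116 deletion library (87.7 and 121 CPM) lay below every WT library (197 and 226 CPM). In HEK293T 89% of the names tested did not overlap between the deletion and WT, and that share is not reported for HCT116. The log2 difference between the lines' effects was 2.20, and it was not tested, since the HEK293T deletion libraries entered the choice of the miRNAs. Of 844 names 110 had a larger difference, among them miR-33b-5p (3.51) and miR-33a-5p (2.28), and the median was 0.34. Per spike-in read miR-33a-3p was below WT in both lines, at 68.4% of WT in HEK293T and 14.3% in HCT116.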

How the results depend on the processing

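Depth limited miR-33b-3p most, at 45 to 96 reads per library in HEK293T. With 2 libraries per group, leaving out 1 leaves a lone library that is assumed to vary like the other groups. The numbers of the replicates share no stated origin: with the replicate block HCT116 deletion against WT gave -1.01 for miR-33a-3p (edgeR adjusted p = 0.0020) and 478 called names, against 494 without it, and the block changed no call of a miR-33 arm. Among all alternatives tried, the fall of miR-33a-3p with the deletion in HCT116 kept its sign in all 16. MiR-33b-5p with the deletion in HEK293T stayed above 0 in all 16. That is a description only, since miR-33b-5p was picked out for its rise in these same libraries. Where values below moved with the scale, the median of all names moved with them; other causes were not tested.

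With DESeq2 factors HEK293T AA against deletion gave -2.20 for miR-33a-5p. With DESeq2 factors the line difference in deletion effect gave 1.90 for miR-33a-3p and 1.52 for miR-33b-3p. With DESeq2 factors the line difference in AA effect gave 0.0098 for miR-33a-3p. By DESeq2 itself HEK293T AA against deletion gave -2.20 for miR-33a-5p. By DESeq2 itself the line difference in deletion effect gave 1.90 for miR-33a-3p and 1.52 for miR-33b-3p. By DESeq2 itself the line difference in AA effect gave 0.0096 for miR-33a-3p. With library totals HEK293T deletion against WT gave 1.45 for miR-33b-3p. With library totals HCT116 deletion against WT gave 0.44 for miR-33a-5p, -0.47 for miR-33a-3p, 0.84 for miR-33b-5p and 0.37 for miR-33b-3p. With library totals HEK293T AA against deletion gave -2.45 for miR-33a-5p and -3.17 for miR-33b-5p. With library totals HCT116 AA against deletion gave -0.095 for miR-33a-5p, 0.39 for miR-33a-3p, -0.25 for miR-33b-5p and -0.65 for miR-33b-3p. With library totals the line difference in deletion effect gave 1.49 for miR-33a-5p, 1.46 for miR-33a-3p, 2.72 for miR-33b-5p and 1.09 for miR-33b-3p. With library totals the line difference in AA effect gave -0.20 for miR-33b-5p. With upper-quartile factors HEK293T deletion against WT gave 2.27 for miR-33a-5p, 1.31 for miR-33a-3p, 3.90 for miR-33b-5p and 1.77 for miR-33b-3p. With upper-quartile factors HCT116 deletion against WT gave 0.17 for miR-33a-5p, 0.58 for miR-33b-5p and 0.14 for miR-33b-3p. With upper-quartile factors HEK293T AA against WT gave 0.011 for miR-33a-5p and 0.93 for miR-33b-5p. With upper-quartile factors HCT116 AA against deletion gave -0.035 for miR-33b-5p. With upper-quartile factors the line difference in deletion effect gave 1.88 for miR-33a-3p and 1.49 for miR-33b-3p. With spike-in factors HEK293T deletion against WT gave 0.38 for miR-33a-5p, -0.57 for miR-33a-3p, 2.01 for miR-33b-5p and -0.11 for miR-33b-3p. With spike-in factors HCT116 deletion against WT gave -1.86 for miR-33a-5p, -1.46 for miR-33b-5p and -1.96 for miR-33b-3p. With spike-in factors HEK293T AA against WT gave -0.93 for miR-33a-5p, -0.95 for miR-33a-3p, -0.027 for miR-33b-5p and -0.40 for miR-33b-3p. With spike-in factors HCT116 AA against WT gave -0.43 for miR-33a-5p, -0.87 for miR-33a-3p, -0.17 for miR-33b-5p and -1.07 for miR-33b-3p. With spike-in factors HEK293T AA against deletion gave -1.31 for miR-33a-5p and -2.03 for miR-33b-5p. With spike-in factors HCT116 AA against deletion gave 1.43 for miR-33a-5p, 1.28 for miR-33b-5p and 0.89 for miR-33b-3p. With spike-in totals HEK293T deletion against WT gave 0.39 for miR-33a-5p, -0.55 for miR-33a-3p, 2.02 for miR-33b-5p and -0.085 for miR-33b-3p. With spike-in totals HCT116 deletion against WT gave -1.86 for miR-33a-5p, -1.45 for miR-33b-5p and -1.95 for miR-33b-3p. With spike-in totals HEK293T AA against WT gave -1.19 for miR-33a-5p, -1.19 for miR-33a-3p, -0.29 for miR-33b-5p and -0.64 for miR-33b-3p. With spike-in totals HCT116 AA against WT gave -0.26 for miR-33a-5p, -0.70 for miR-33a-3p, -0.011 for miR-33b-5p and -0.90 for miR-33b-3p. With spike-in totals HEK293T AA against deletion gave -1.58 for miR-33a-5p and -2.31 for miR-33b-5p. With spike-in totals HCT116 AA against deletion gave 1.60 for miR-33a-5p, 1.44 for miR-33b-5p and 1.05 for miR-33b-3p. With spike-in totals the line difference in AA effect gave -0.27 for miR-33b-5p. With no filter HEK293T deletion against WT gave 0.56 for miR-33a-3p and 1.02 for miR-33b-3p. With no filter HEK293T AA against WT gave -0.039 for miR-33b-3p. With no filter HEK293T AA against deletion gave -2.09 for miR-33a-5p and -2.80 for miR-33b-5p. With no filter HCT116 AA against deletion gave 0.49 for miR-33a-5p. With no filter the line difference in deletion effect gave 1.86 for miR-33a-3p and 1.48 for miR-33b-3p. With geometric spike-in means HEK293T deletion against WT gave -0.64 for miR-33a-3p and -0.18 for miR-33b-3p. With geometric spike-in means HEK293T AA against WT gave -0.51 for miR-33b-3p. The lowest single spike-in for HEK293T deletion against WT gave -1.18 for miR-33a-5p, -2.18 for miR-33a-3p, 0.45 for miR-33b-5p and -1.72 for miR-33b-3p. The lowest single spike-in for HCT116 deletion against WT gave -2.44 for miR-33a-5p, -3.28 for miR-33a-3p, -1.99 for miR-33b-5p and -2.40 for miR-33b-3p. The lowest single spike-in for HEK293T AA against WT gave -2.34 for miR-33a-5p, -2.40 for miR-33a-3p, -1.41 for miR-33b-5p and -1.84 for miR-33b-3p. The lowest single spike-in for HCT116 AA against WT gave -2.25 for miR-33a-5p, -2.67 for miR-33a-3p, -2.01 for miR-33b-5p and -2.88 for miR-33b-3p. The highest single spike-in for HEK293T deletion against WT gave 0.63 for miR-33a-3p and 1.09 for miR-33b-3p. The highest single spike-in for HCT116 deletion against WT gave -0.99 for miR-33a-5p, -1.82 for miR-33a-3p, -0.54 for miR-33b-5p and -0.95 for miR-33b-3p. The highest single spike-in for HEK293T AA against WT gave -0.30 for miR-33a-3p and 0.27 for miR-33b-3p. The highest single spike-in for HCT116 AA against WT gave 0.39 for miR-33a-5p, -0.031 for miR-33a-3p and -0.24 for miR-33b-3p. Called names for HCT116 AA against WT numbered 34 with upper-quartile factors, 272 with spike-in factors and 186 with spike-in totals, against 59. HEK293T AA against WT had 292 called names with spike-in totals, against 134. The line difference in AA effect had 78 called names with library totals and 50 with spike-in totals, against 33. Arm use in HEK293T AA against WT had 10 called hairpins with at least 5 reads per arm, against 19. Without 1 library at a time the values ran as follows. Arm use in HCT116 AA against deletion ran from -0.73 to -0.095 for miR-33a and -0.24 to 1.14 for miR-33b. Arm use in HCT116 AA against WT ran from 14 to 38 for the hairpins called and 0.66 to 1.06 for miR-33b. Arm use in HCT116 deletion against WT ran from -0.28 to 1.10 for miR-33b. Arm use in HEK293T AA against WT ran from 10 to 22 for the hairpins called and -0.31 to 0.44 for miR-33a. HCT116 AA against deletion ran from -0.029 to 1.02 for miR-33a-5p, -0.49 to 0.13 for miR-33b-3p and -0.090 to 0.67 for miR-33b-5p. HCT116 AA against WT ran from 10 to 85 for the names called. HCT116 deletion against WT ran from -0.85 to 0.20 for miR-33a-5p, -0.59 to 0.032 for miR-33b-3p and -0.25 to 0.51 for miR-33b-5p. HEK293T AA against deletion ran from -2.28 to -2.03 for miR-33a-5p and -2.96 to -2.78 for miR-33b-5p. HEK293T AA against WT ran from 54 to 136 for the names called, -0.88 to -0.037 for miR-33a-5p, -0.042 to 0.20 for miR-33b-3p and 0.0030 to 0.93 for miR-33b-5p. HEK293T deletion against WT ran from 0.64 to 1.01 for miR-33a-3p, 1.37 to 2.21 for miR-33a-5p, 1.15 to 1.42 for miR-33b-3p and 2.97 to 3.89 for miR-33b-5p. The line difference in AA effect ran from 27 to 50 for the names called and -0.15 to 0.59 for miR-33b-5p. The line difference in deletion effect ran from 1.92 to 2.42 for miR-33a-3p, 1.89 to 2.82 for miR-33a-5p, 1.45 to 2.17 for miR-33b-3p and 3.21 to 3.92 for miR-33b-5p. HCT116 AA against WT per spike-in read ran from -1.12 to -0.66 for miR-33b-3p and -0.27 to 0.21 for miR-33b-5p. HCT116 deletion against WT per spike-in read ran from -2.61 to -1.37 for miR-33a-5p and -2.01 to -1.06 for miR-33b-5p. HEK293T AA against WT per spike-in read ran from -1.42 to -1.0 for miR-33a-3p, -1.55 to -0.71 for miR-33a-5p and -0.68 to 0.24 for miR-33b-5p. HEK293T deletion against WT per spike-in read ran from 0.032 to 0.87 for miR-33a-5p and 1.63 to 2.55 for miR-33b-5p.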
